A study of Mus musculus with 60 samples.

Results

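RNA levels of 10 genes linked to the transcription factor p53 were followed. Cdkn1a, Mdm2, Ccng1, Phlda3, Zmat3, Bax, Trp53inp1, Sesn2 and Plk2 are established p53 targets, and Trp53 encodes p53 itself. They were taken by gene symbol, with no measured value in the rule, out of 24982 genes in each of 2 deposited tables of FPKM (fragments per kilobase of transcript, scaled to the mapped fragments of the library, a level that can be compared between genes). All 10 passed the filter on low values, at least 1 FPKM in at least 3 libraries, in both tables. The study sequenced polyadenylated RNA of C3H10T1/2 cells, a mouse mesenchymal line that turns into fat cells when induced, and asks what TET1, an enzyme that oxidises methylated cytosine, does in that process.

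The first table holds Tet1-KO and WT cells at days 0, 2, 4 and 6, with 3 libraries a group and 24 in all. The second holds the populations 23-CATA, 23-Tet1 and 23-NC at the same 4 days, with 36 libraries in all. Day 0 is the confluent culture before induction. Induction lasted 48 h in medium with 10% serum, rosiglitazone and dexamethasone (1 µM each), insulin (10 µg/ml), the phosphodiesterase inhibitor IBMX (0.5 mM) and T3 (1 nM), after which insulin alone (5 µg/ml) was given. The labels explain neither the prefix 23 nor the names CATA and NC, and in 11 of the 23-Tet1 samples the genotype tag ends in another number than the title, so titles set the groups. No label says how the knockout was made, whether it is 1 clone, or whether the 3 libraries of a group came from separate cultures, so every p-value measures only the spread between these libraries, which may be technical.

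In background, p53 protein is kept scarce in unstressed cells because Mdm2 marks it for destruction, and it builds up after DNA damage or other stress mainly through slower breakdown, so the level of Trp53 mRNA is not a measure of p53 activity. Active p53 binds response elements near its target genes and raises a core set whose products stop the cell cycle, open the way to cell death, restrain growth signalling, or act back on p53. In cells of the fat lineage, p53 and its target p21 have been studied as brakes on the proliferation that accompanies differentiation and as marks of stress or senescence.

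A p53 response element is a pair of half-sites of 10 bases each with a spacer of 0 to 13 bases. It reads the same on both strands, and it was the only motif searched, in RefSeq promoters (GRCm38.p6, 250 bases before to 50 after each start). Of the members, 8 had an entry, with 9 promoters, and Zmat3 and Trp53inp1 had none. The 3 closest matches are shown, those of Cdkn1a, Ccng1 and Bax, which had the fewest mismatches. Whether a match goes with a difference in level was not tested. Half-sites are in capitals and each line runs 5′ to 3′ on the gene's own strand, over 120 bases at chr17:29090859-29090978 (plus), chr11:40755412-40755531 (minus) and chr7:45467029-45467148 (minus).
Cdkn1a: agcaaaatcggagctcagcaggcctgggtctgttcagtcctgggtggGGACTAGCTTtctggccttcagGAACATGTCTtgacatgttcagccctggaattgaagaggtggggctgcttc
Ccng1: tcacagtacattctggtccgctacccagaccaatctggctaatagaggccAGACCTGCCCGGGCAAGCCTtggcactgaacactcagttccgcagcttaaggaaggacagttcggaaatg
Bax: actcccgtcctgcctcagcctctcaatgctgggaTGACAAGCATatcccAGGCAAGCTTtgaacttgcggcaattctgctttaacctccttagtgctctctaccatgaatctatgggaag

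The Cdkn1a match had 0 mismatches to the consensus and a spacer of 12 bases, from -73 to -42 relative to the start at base 29090979. The best window of the other Cdkn1a promoter, with its start at base 29093769, had 5 mismatches. The Ccng1 match had 1 mismatch and a spacer of 0 bases, from -195 to -176. The Bax match had 2 mismatches and a spacer of 5 bases, from -216 to -192. Among all 32851 promoters of this length, 0.0731% held a match with 0 mismatches, 0.627% with at most 1 and 4.09% with at most 2. The best windows of the remaining promoters had 3 to 6 mismatches, and at most 4 mismatches were met by 40.4% of all promoters. A match describes letters in this window and no binding was measured. In the GENCODE M21 annotation (GRCm38), Cdkn1a lies at chr17:29090976-29100727, Mdm2 at chr10:117688875-117710758, Ccng1 at chr11:40748552-40755311, Bax at chr7:45461697-45466898 and Trp53 at chr11:69580359-69591873. Of the members, Cdkn1a and Bax share exon bases with another annotated gene, 273 of 3553 bases for Cdkn1a on the opposite strand and 192 of 1576 for Bax on the same strand.

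Spacing of low FPKM values gave 12 to 19.2 M fragments in 59 libraries. The second Tet1-KO library of day 6 stood apart, with 11805 genes above 0, and too few low values to read its depth. Its Trp53 level was 5.77 FPKM against 40.8 and 49.8 FPKM in the other Tet1-KO libraries of that day, and the first table's member counts and day 6 values are also given without it. Tet1 averaged 0.25 ± 0.01 FPKM in Tet1-KO and 1.01 ± 0.121 FPKM in WT cells at day 0 (SD, n = 3 each, exact two-sided permutation p = 0.1, the smallest that 3 against 3 allows), and 0.0467 and 0.03 FPKM at day 2 (p = 0.5), 0.01 and 0.0267 FPKM at day 4 (0.2), and 0.0133 and 0.08 FPKM at day 6 (0.1) in Tet1-KO and WT cells, so the transcript was close to 0 in both after induction. On the log2 scale it was 3.32 higher in 23-CATA and 2.44 higher in 23-Tet1 than in 23-NC at day 0 (limma, adjusted p = 6.93e-21 and 8.41e-18). Of other cell types' defining markers, Ptprc, Adgre1, Cdh5 and Kdr reached at most 0.05 FPKM in any library, Epcam 0.11 FPKM, Csf1r 0.68 FPKM, Pecam1 1.1 FPKM and Cdh1 2.92 FPKM. The sum of 8 macrophage markers was led by Cd68, a lysosomal protein also found in other cells. It was 45.5 to 54.4 FPKM in Tet1-KO against 13.7 to 15.0 FPKM in WT at day 0, 44.0 to 45.3 FPKM in 23-CATA against 7.74 to 12.7 FPKM in 23-NC at day 0, and 81.9 to 91.2 FPKM in 23-CATA and 75.8 to 80.1 FPKM in 23-Tet1 against 125.7 to 133.3 FPKM in 23-NC at day 6. The sum of 5 endothelial markers was 1.15 to 1.34 FPKM in 23-CATA and 0.7 to 0.93 FPKM in 23-Tet1 against 9.46 to 12.7 FPKM in 23-NC at day 0, led by Vwf (at most 10.6 FPKM), and at most 2 FPKM in the first table. The sum of 6 epithelial markers was 11.2 to 13.1 FPKM in 23-Tet1 against 1.46 to 2.26 FPKM in 23-NC at day 0, led by Krt14 (at most 9.92 FPKM), and at most 1.98 FPKM in the first table. The part of these markers in the members' differences was not tested. Adipocyte markers reached a sum of 1.205e+05 FPKM in the first table and 8.15e+04 FPKM in the second, mostly Fabp4.

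Unless a level in FPKM is named, changes below are differences of log2(FPKM + 1) with the median change over every gene tested in that comparison subtracted, given with their standard error, and calls are limma's adjusted p under 0.05 over 11911 genes in the first table and 12231 in the second. The p-value tests the change as fitted, and a member counts as higher or lower only where the fitted and the relative change have the same sign. In bulk RNA, fewer cells of a type and less RNA per cell cannot be told apart.

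Tet1-KO cells held more RNA of most p53 targets than WT cells at days 2 and 4. Most of the day 4 calls were lost when each fit held only the 2 groups compared. Cdkn1a and Phlda3 were called higher already before induction, but both day 0 calls were lost under quantile normalisation. At day 0, 2 of the 10 members were higher and 0 lower, against 5.83% and 11% of all genes tested (limma; at an unadjusted p under 0.05, 5 and 0). The day 2 counts were 7 and 0 (background 16.2% and 6.76%, unadjusted 8 and 0), and those of day 4 were 6 and 0 (background 9.79% and 6.22%, unadjusted 7 and 0). At day 6 there were 3 higher and 2 lower, while the background was 15.7% higher and 29.7% lower. The members' higher share was above that of all genes on each day, whereas their lower share at day 6 was below it. Without the second Tet1-KO library of day 6 the counts at days 0, 2, 4 and 6 were 5 and 0 (background 12.5% and 20.8%), 9 and 0 (27.7% and 13%), 8 and 0 (19.3% and 12.3%), and 5 and 1 (20.1% and 23.5%). They were 5 and 1 (17.6% and 26.7%), 10 and 0 (38.4% and 16.7%), 8 and 0 (30.3% and 18.8%), and 7 and 2 (26.4% and 27.2%) without the second Tet1-KO libraries of days 2, 4 and 6. The median gene itself, as fitted, differed by 0.17 at day 2 and -0.20 at day 6. Quantile normalisation and median-ratio scaling each gave 5 higher and 2 lower at day 6. At day 0 quantile normalisation gave 1 higher and 0 lower, and median-ratio scaling 5 and 0. With only the 2 compared groups in each fit, 6, 9, 1 and 1 members were called at days 0, 2, 4 and 6, all higher. Shares of all genes under that setting are not given here. The median member was 0.66, 0.77, 0.69 and 0.74 above the median gene at days 0, 2, 4 and 6. All 3 libraries of 1 population lay above all 3 of the other for 7, 10, 8 and 6 members at days 0, 2, 4 and 6, where 58.8%, 53.7%, 40.8% and 42.8% of all genes did, so the members' share was most above that of all genes at days 2 and 4.

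**Figure D1:**
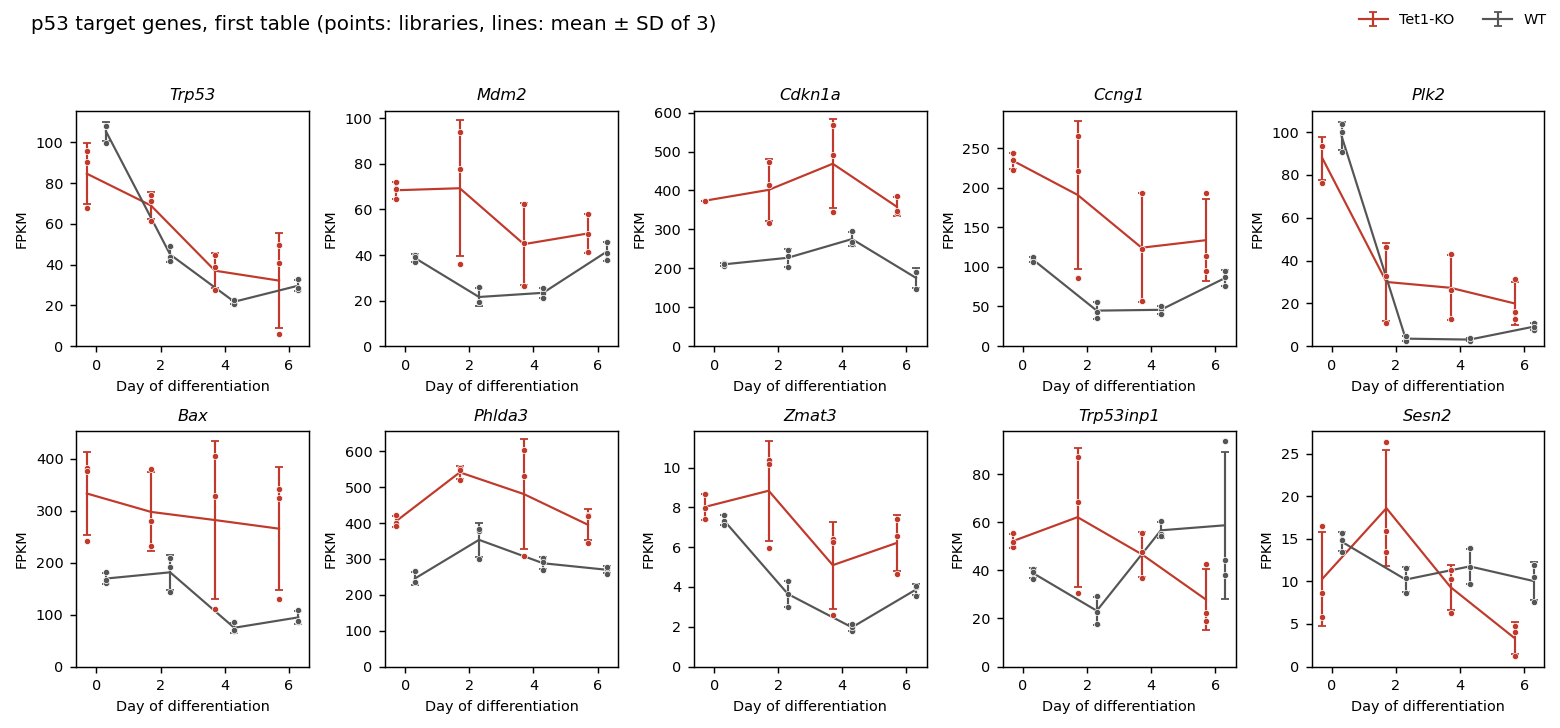
Level of each member in FPKM (vertical axis, from 0) at days 0, 2, 4 and 6 in Tet1-KO and WT cells, with 1 point per library and lines at the mean ± SD of 3 libraries. Cdkn1a and Phlda3 lie higher in Tet1-KO cells on all 4 days, and the Tet1-KO points of Ccng1, Bax and Plk2 spread widely after day 0.

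Cdkn1a encodes p21, the inhibitor of cyclin-dependent kinases through which p53 halts the cell cycle. It had 373, 373 and 374 FPKM in the Tet1-KO libraries of day 0, against 213, 207 and 209.7 FPKM in WT. At day 2 it had 414, 316 and 474 FPKM in Tet1-KO, against 231, 202 and 248 FPKM in WT. At day 4 it had 569, 345 and 492 FPKM in Tet1-KO, against 263, 267 and 295 FPKM in WT. Every Tet1-KO library lay above every WT library on these days, as at day 6, with 386, 342 and 346 FPKM in Tet1-KO and 189, 146 and 190.3 FPKM in WT. The difference was 0.92 ± 0.18, 0.64 ± 0.18, 0.65 ± 0.18 and 1.23 ± 0.18 at days 0, 2, 4 and 6 (limma, adjusted p = 0.00409, 0.00468, 0.00988 and 0.0002). Cdkn1a and Phlda3 were the members called higher on all 4 days, and the day 4 call of Cdkn1a was lost without Tet1-KO replicate 1 (adjusted p = 0.0796) or replicate 3 (0.0606). With quantile normalisation the day 0 difference was 0.54 and not called (adjusted p = 0.065). Ordered by mean, the 4 Tet1-KO groups came first, and the lowest of them, day 6, did not overlap the highest WT group, day 4.

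Mdm2, the ubiquitin ligase that p53 induces against itself, and Ccng1, the cyclin G1 gene whose product brings a phosphatase to Mdm2, are described together. Mdm2 had 69, 64.4 and 72 FPKM in Tet1-KO and 36.9, 39.9 and 39.3 FPKM in WT at day 0, groups that did not overlap, but the difference of 0.90 ± 0.28 missed the threshold (limma, adjusted p = 0.0577). At day 2 Mdm2 had 77.9, 36.1 and 94 FPKM in Tet1-KO, against 19.5, 19.2 and 26 FPKM in WT, and was higher by 1.38 ± 0.28 (adjusted p = 0.0014). Ccng1 had 221, 86.1 and 266 FPKM in Tet1-KO, against 43.6, 35.1 and 55.6 FPKM in WT at day 2, and was higher by 1.78 ± 0.38 (adjusted p = 0.00216). In both genes the second Tet1-KO library sat between the other Tet1-KO libraries and WT. At day 4 Ccng1 was higher by 1.17 ± 0.38 (adjusted p = 0.0308), with 123, 56.3 and 193 FPKM in Tet1-KO and 46.8, 40 and 50.5 FPKM in WT. That call was lost on leaving out WT replicate 1, 2 or 3 or Tet1-KO replicate 1 or 3, with adjusted p from 0.0652 to 0.228. Mdm2 at day 4 differed by 0.74 ± 0.28 (adjusted p = 0.0523), and at day 6 neither gene was called, with differences of 0.43 for Mdm2 and 0.77 for Ccng1. Without the second Tet1-KO library of day 6 these were 0.24 (adjusted p = 0.565) for Mdm2 and 0.66 (0.218) for Ccng1, and without the second libraries of days 2, 4 and 6 Ccng1 was called (0.66, adjusted p = 0.029).

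Trp53 mRNA itself was not called on any day. It had 74.2, 61.6 and 71.2 FPKM in Tet1-KO and 43.8, 42 and 49.1 FPKM in WT at day 2, and 38.7, 27.6 and 44.6 FPKM in Tet1-KO and 22.3, 20.5 and 22.4 FPKM in WT at day 4. Tet1-KO lay above WT without overlap on both days. The differences were -0.24 ± 0.45, 0.44 ± 0.45, 0.62 ± 0.45 and -0.14 ± 0.45 at days 0, 2, 4 and 6 (limma, adjusted p = 0.666, 0.344, 0.298 and 0.564). With the second Tet1-KO library of day 6 left out of the fit, Trp53 was called at day 2 (0.44, adjusted p = 0.00544), day 4 (0.62, 0.00252) and day 6 (0.60, 0.00995). That library enters the Tet1-KO mean of day 6 and the spread shared by all groups of a gene. Without it, Mdm2 (adjusted p = 0.0349), Ccng1 (0.0353) and Bax (0.0328) were also called higher at day 0, and Mdm2 at day 4 (0.032), Sesn2 at day 2 (0.59, 0.0424) and Zmat3 at day 6 (0.72, 0.0261), 28 calls in all against 20. At day 6 the calls of Cdkn1a (1.08, 0.000236), Bax (1.82, 0.000751), Phlda3 (0.65, 0.0118) and Sesn2 (-1.01, 0.0161) were kept without it, and Plk2 was not called (1.07, 0.0786), as with it (1.16, 0.0721).

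Bax encodes a protein that opens the outer mitochondrial membrane in apoptosis. It had 329.5, 112 and 405 FPKM in Tet1-KO, against 85.1, 67.8 and 71.2 FPKM in WT at day 4. At day 6 it had 324, 129.7 and 343 FPKM in Tet1-KO, against 109, 86.7 and 88.6 FPKM in WT. The groups did not overlap on either day, although the second Tet1-KO library was the lowest of its group both times. Bax was higher by 1.63 ± 0.39 at day 4 (limma, adjusted p = 0.00617) and by 1.56 ± 0.39 at day 6 (adjusted p = 0.00792), and the day 4 call was lost without Tet1-KO replicate 3 (1.31, adjusted p = 0.0588). At days 0 and 2 the differences of 1.03 and 0.53 were not called.

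Phlda3, whose product competes with the kinase Akt for membrane lipids, had the highest mean FPKM of the members in all 8 groups of the first table. It had 400.3, 422 and 391 FPKM in Tet1-KO, against 265, 235 and 236 FPKM in WT at day 0, with no overlap. It was higher by 0.81 ± 0.19, 0.46 ± 0.19, 0.59 ± 0.19 and 0.74 ± 0.19 at days 0, 2, 4 and 6 (limma, adjusted p = 0.014, 0.0237, 0.0202 and 0.0256). Each of these calls was lost on leaving out any 1 of several libraries, with the difference still positive. It was then 0.76 to 0.78 at day 0, 0.35 to 0.52 at day 2, 0.40 to 0.58 at day 4 and 0.70 to 0.78 at day 6. The day 0 call was lost without WT replicate 2 or 3 or Tet1-KO replicate 2 (adjusted p from 0.0646 to 0.0654), and under quantile normalisation (0.39, adjusted p = 0.147). The day 2 call was lost without WT replicate 1 or 2 or Tet1-KO replicate 1 or 3 (0.0501 to 0.122), and the day 4 call without WT replicate 2 or 3 or Tet1-KO replicate 1 or 3 (0.057 to 0.147). The day 6 call was lost without any of the WT libraries or without Tet1-KO replicate 1 or 3 (0.052 to 0.0698).

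Zmat3 encodes a zinc finger protein that binds RNA. It had 10.4, 5.95 and 10.2 FPKM in Tet1-KO and 3.65, 3.01 and 4.28 FPKM in WT at day 2, and was higher by 0.89 ± 0.24 (limma, adjusted p = 0.00459). At day 4 it was higher by 0.87 ± 0.24 (adjusted p = 0.00988), a call lost without Tet1-KO replicate 1 (0.0772) or 3 (0.0819). Trp53inp1, a nuclear protein of the stress response that also takes part in autophagy, moved in opposite directions at days 2 and 6. At day 2 it had 68.6, 30.5 and 87.3 FPKM in Tet1-KO and 22.7, 17.7 and 29.2 FPKM in WT, and was higher by 1.12 ± 0.35 (adjusted p = 0.0135), a call lost without WT replicate 2 or Tet1-KO replicate 1 or 3 (0.0705 to 0.0893). At day 6 it had 42.6, 19 and 22.2 FPKM in Tet1-KO and 38.2, 93.9 and 44.2 FPKM in WT, and was lower, at -0.82 ± 0.35 (adjusted p = 0.0236). The groups overlapped there, and the call was lost without WT replicate 2 (-0.40, adjusted p = 0.16), Tet1-KO replicate 2 (-0.79, 0.0918) or Tet1-KO replicate 3 (-0.62, 0.06).

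Plk2, a polo-like kinase with a role in centriole duplication, showed the widest gap of any member. At day 0 it had 93.6, 76.2 and 93.7 FPKM in Tet1-KO and 90.9, 99.99 and 104 FPKM in WT, which overlapped. At day 2 it had 32.9, 10.6 and 46.5 FPKM in Tet1-KO, against 3.35, 2.49 and 4.6 FPKM in WT. At day 4 it had 26.1, 12.6 and 43.1 FPKM in Tet1-KO, against 2.82, 2.59 and 3.73 FPKM in WT. Even the lowest Tet1-KO library lay above every WT library on days 2 and 4, and the differences were 2.43 ± 0.43 (limma, adjusted p = 0.000606) and 2.57 ± 0.43 (adjusted p = 0.000502). Sesn2, a leucine sensor that holds back the growth kinase complex mTORC1 and is also induced by the stress factor ATF4, ran the other way at day 6. It had 4.07, 1.22 and 4.71 FPKM in Tet1-KO and 10.6, 7.59 and 11.9 FPKM in WT at day 6, with no overlap, and was lower, at -1.25 ± 0.35 (adjusted p = 0.00264). The Sesn2 differences at days 0, 2 and 4 were -0.49, 0.59 and -0.42, and none of them was called. Of 22 other ATF4 targets tested, the counts higher and lower at days 0, 2, 4 and 6 were 7 and 0, 1 and 2, 2 and 3, and 1 and 14 (limma; unadjusted 0 lower at day 0), with medians of 0.65, -0.07, -0.12 and -0.87, so their median and Sesn2 had opposite signs at days 0 and 2. All genes had 5.83% and 11%, 16.2% and 6.76%, 9.79% and 6.22%, and 15.7% and 29.7%. On day 6, 3 ATF4 targets were higher and 12 lower without the second Tet1-KO library of that day (background 20.1% and 23.5%), with a median of -0.58.

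**Figure D2:**
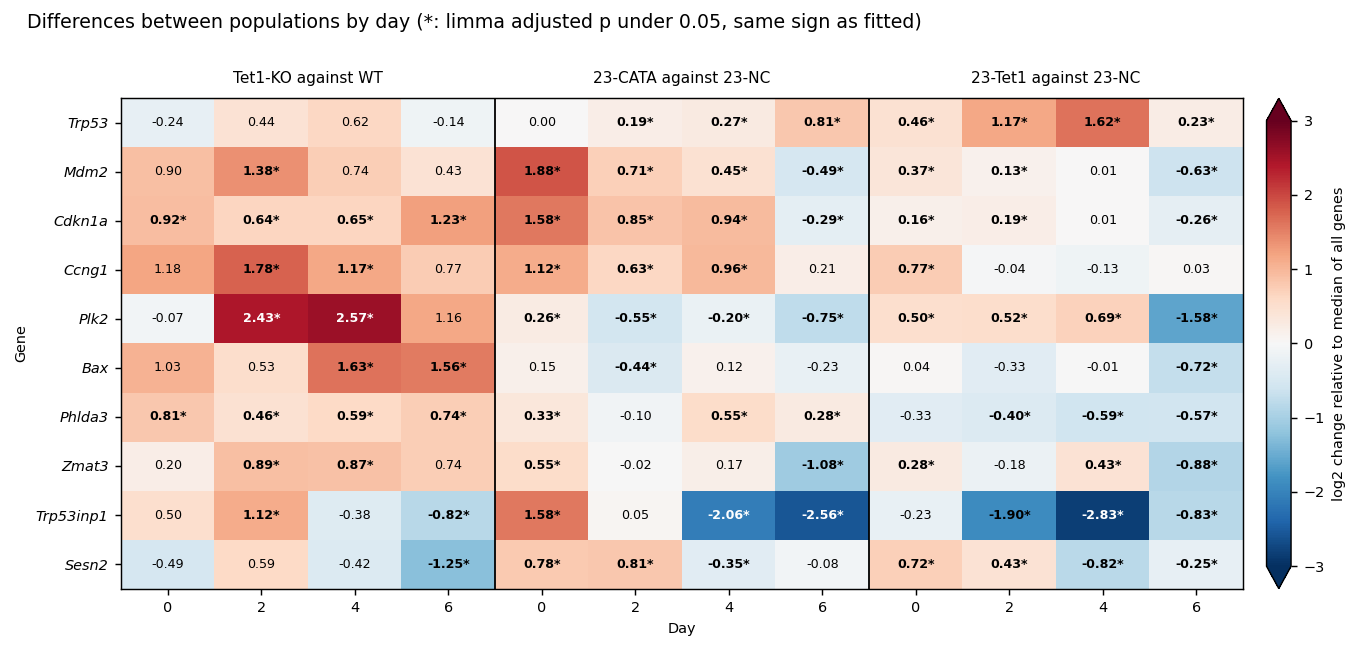
Differences of log2(FPKM + 1), with the median over every gene tested subtracted, for each member (down) by day (across) in Tet1-KO against WT, 23-CATA against 23-NC and 23-Tet1 against 23-NC, on a colour scale from -3 to 3 with asterisks at adjusted p under 0.05 (limma). Higher calls fill most of the Tet1-KO columns of days 2 and 4 and both second-table columns of day 0, and lower calls gather at day 6 in the second table.

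The second Tet1-KO libraries lay nearer to WT than the other Tet1-KO libraries did, for 9 of the 10 members at day 2 and 9 at day 4, against 3 at day 0 and 4 at day 6. The same libraries had the highest adipocyte marker sums of their groups. At day 2 the summed level of the 18 adipocyte markers was 9267, 5.166e+04 and 1.166e+04 FPKM in Tet1-KO replicates 1, 2 and 3, and 6.074e+04, 7.252e+04 and 5.548e+04 FPKM in the WT libraries. At day 4 it was 4.466e+04, 9.55e+04 and 2.554e+04 FPKM in the Tet1-KO libraries and 1.205e+05, 1.14e+05 and 1.026e+05 FPKM in the WT libraries. Among the 18 markers, 11 were lower in Tet1-KO at day 2, 8 at day 4 and 15 at day 6, whereas 9, 10 and 6 of the 13 mesenchymal markers tested were higher on these days. Of all genes, 6.76%, 6.22% and 29.7% were lower and 16.2%, 9.79% and 15.7% higher. The markers' counts in the other direction are not given here. The part of the degree of differentiation in the members' differences was not tested. Without the second Tet1-KO libraries of days 2, 4 and 6 the members had 33 calls over the 4 days, against 20 with them. These libraries lay nearest to WT for most members at days 2 and 4, so leaving them out tends to widen the differences on those days. They also enter the spread shared by all groups of a gene. At day 0, where every library was kept, Mdm2 (0.90) and Bax (1.03) kept their differences and became called (limma, adjusted p = 0.000486 and 0.000679). Nothing is concluded from the rise in calls.

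In the second table the populations were ordered differently at the start and at the end of the course. Before induction, 23-CATA and 23-Tet1 both held more RNA of most p53 targets than 23-NC, and by day 6 most of the called members were lower in them than in 23-NC. Both comparisons share the 23-NC libraries, so their values are given side by side and are not independent. Standard errors were 0.16 or less for every member when 2 groups were compared.

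**Figure D3:**
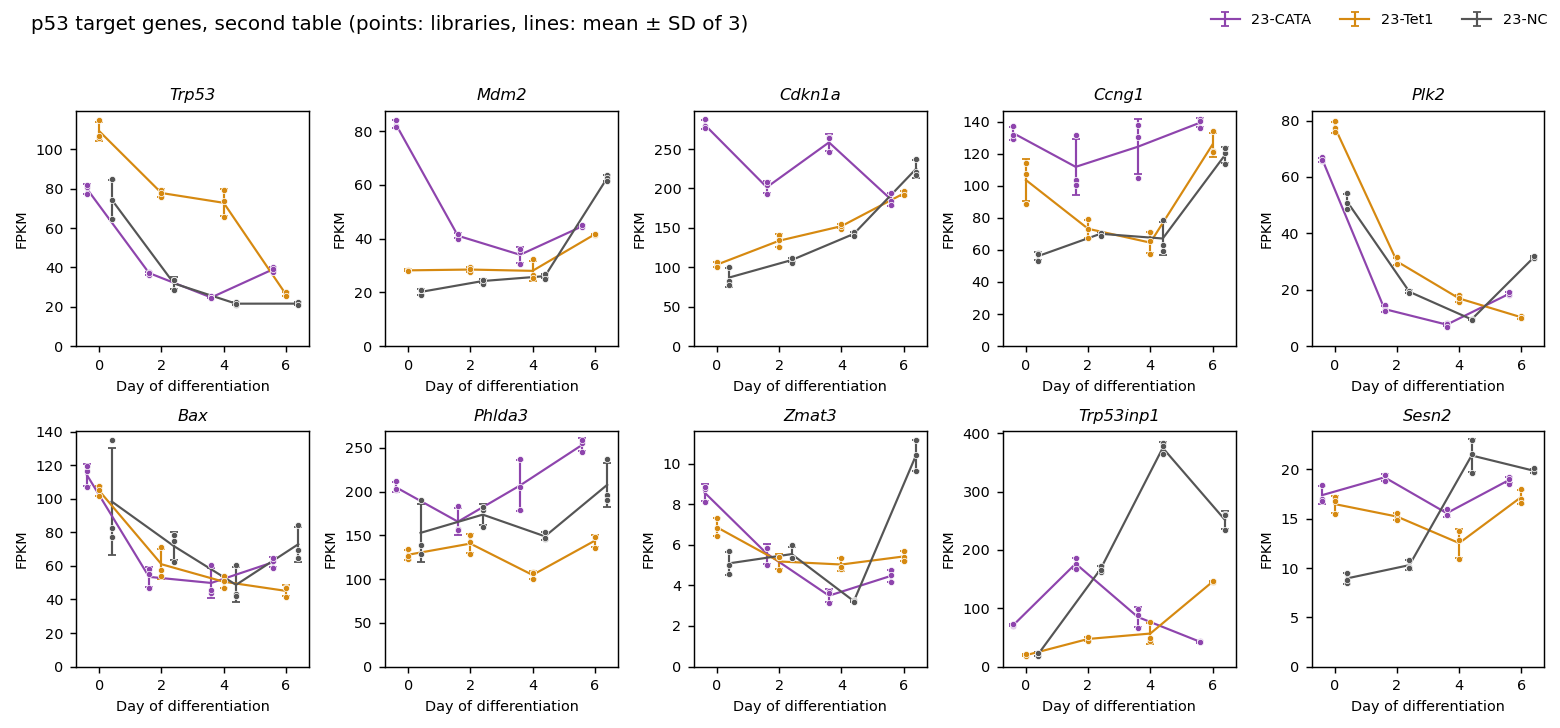
Level of each member in FPKM (vertical axis, from 0) at days 0, 2, 4 and 6 in 23-CATA, 23-Tet1 and 23-NC, with 1 point per library and lines at the mean ± SD of 3 libraries. Cdkn1a and Mdm2 start highest in 23-CATA and end highest in 23-NC, and Trp53inp1 is highest in 23-NC at days 4 and 6.

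At day 0, 8 of the 10 members were higher in 23-CATA than in 23-NC and 0 lower, against 31.6% and 11.7% of all genes tested, with a median of 0.66 (0 lower at an unadjusted p under 0.05). Cdkn1a had 288, 279 and 276 FPKM in 23-CATA, against 100.05, 83.1 and 78.1 FPKM in 23-NC, a difference of 1.58 ± 0.063 (limma, adjusted p = 2.03e-19). Mdm2 had 82, 84.2 and 81.7 FPKM in 23-CATA, against 19, 20.7 and 20.7 FPKM in 23-NC, a difference of 1.88 ± 0.062 (adjusted p = 2.28e-21). Trp53inp1 had 69.4, 70.8 and 73.5 FPKM in 23-CATA, against 18.4, 23.2 and 23.1 FPKM in 23-NC, a difference of 1.58 ± 0.13 (adjusted p = 7.14e-12). None of these groups overlapped. Ccng1 was higher by 1.12, Sesn2 by 0.78, Zmat3 by 0.55, Phlda3 by 0.33 and Plk2 by 0.26. Bax (0.15, adjusted p = 0.189) and Trp53 (0.00, 95% interval -0.14 to 0.14) were not called, and Trp53 mRNA averaged 80 ± 2.59 FPKM in 23-CATA and 74.4 ± 10.1 FPKM in 23-NC (SD, n = 3 each). The sum of adipocyte markers was already 3163 to 3296 FPKM in 23-CATA at that time, against 203 to 210.1 FPKM in 23-NC, with 17 of the 18 markers tested higher, and its part in the members' values was not tested.

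23-Tet1 at day 0 had 7 members higher than 23-NC and 0 lower, with a background of 37.8% and 23.5% and a median of 0.32 (1 lower at an unadjusted p under 0.05), and 7 higher and 1 lower under quantile normalisation and under median-ratio scaling. The largest differences were in Ccng1 (0.77 ± 0.11, limma adjusted p = 4.27e-08), Sesn2 (0.72 ± 0.064, 4.97e-12) and Plk2 (0.50 ± 0.058, 5.37e-10). Cdkn1a was higher by 0.16 ± 0.063 (adjusted p = 0.000949), with 102, 107 and 100.5 FPKM in 23-Tet1, and by 0.26 without 23-NC replicate 1 or 0.09 without its replicate 3. Trp53 was higher by 0.46 ± 0.072 (adjusted p = 1.16e-07), with 106, 115 and 107 FPKM in 23-Tet1 and 84.7, 74.1 and 64.6 FPKM in 23-NC. All 36 cell cycle genes listed were also higher in 23-Tet1 than in 23-NC at that time, with a median of 1.17.

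Set directly against each other at day 0, 23-CATA exceeded 23-Tet1 in 6 members and lay below it in 2 (background 32.9% and 31.3%). Trp53inp1 differed by 1.81 ± 0.13 (limma, adjusted p = 3.98e-13), Mdm2 by 1.51 ± 0.062 (4.61e-19) and Cdkn1a by 1.43 ± 0.063 (2.89e-18). Trp53 went the other way, at -0.45 ± 0.072 (4.06e-06), as did all 36 cell cycle genes, with a median of -0.995. The Ccng1 call (0.36) was lost without 23-Tet1 replicate 2 (0.25, adjusted p = 0.0503).

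At days 2 and 4 the members split. 23-CATA had 5 members higher and 2 lower than 23-NC on day 2 (background 34.3% and 30.7%), or 4 and 3 under quantile normalisation, and on day 4, 5 were higher and 3 lower (background 28.9% and 39.9%). Cdkn1a remained higher, by 0.85 ± 0.063 at day 2 and 0.94 ± 0.063 at day 4 (limma, adjusted p = 3.98e-13 and 7.45e-13), as did Mdm2 (0.71 and 0.45) and Ccng1 (0.63 and 0.96). Trp53inp1 had 175, 168 and 187 FPKM in 23-CATA and 163, 172 and 166 FPKM in 23-NC at day 2, which overlapped and were not called (0.05, 95% interval -0.21 to 0.31). At day 4 it had 88.5, 99.4 and 66.7 FPKM in 23-CATA, against 382, 379 and 364 FPKM in 23-NC, and was lower, at -2.06 ± 0.13 (adjusted p = 1.03e-14). Plk2 was lower, at -0.55 and -0.20 at days 2 and 4. Some small calls were lost on leaving out 1 library. Bax at day 2 (-0.44) was lost without 23-NC replicate 1 or 3 or 23-CATA replicate 1 (adjusted p from 0.0645 to 0.107). Trp53 at day 2 (0.19) was lost without 23-NC replicate 2 (0.11, adjusted p = 0.11). At day 4 the Trp53 call (0.27) was lost without 23-NC replicate 1 or 3 or 23-CATA replicate 1 (0.0559 to 0.0679).

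23-Tet1 had 5 members higher and 2 lower than 23-NC on day 2 (background 38.7% and 25.2%), or 4 and 3 under median-ratio scaling, and on day 4, 3 were higher and 3 lower (background 35% and 21.9%), shares near those of all genes. Its most divergent members were Trp53 and Trp53inp1. Trp53 had 79.6, 75.8 and 78 FPKM in 23-Tet1 and 33.6, 28.3 and 33.7 FPKM in 23-NC at day 2. At day 4 it had 79.1, 65.6 and 73.8 FPKM in 23-Tet1 and 21, 22.4 and 21.2 FPKM in 23-NC. Every 23-Tet1 library lay above every 23-NC library on both days, and the differences were 1.17 ± 0.072 and 1.62 ± 0.072 (limma, adjusted p = 3.03e-15 and 5.48e-18). Trp53inp1 was lower, at -1.90 ± 0.13 and -2.83 ± 0.13 (7.25e-13 and 7.15e-17), and at day 4 it had 43.6, 77.2 and 48.9 FPKM in 23-Tet1. Over the same days Cdkn1a differed by 0.19 at day 2 and 0.01 at day 4 (95% interval -0.11 to 0.13), and Mdm2 by 0.13 and 0.01 (95% interval at day 4 -0.11 to 0.13). The Phlda3 call at day 2 (-0.40) was lost without 23-Tet1 replicate 3 (0.0723) or 23-NC replicate 3 (0.052).

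At day 6, 23-Tet1 had 1 member higher than 23-NC and 8 lower, against 36% and 29% of all genes, with a median of -0.60. 23-CATA had 2 higher and 5 lower, against 38% and 36.4%, with a median of -0.26, or 1 higher and 7 lower under quantile normalisation. Plk2 had 18.1, 18.4 and 19.1 FPKM in 23-CATA and 10.7, 9.89 and 10.1 FPKM in 23-Tet1, against 31.3, 31.2 and 32 FPKM in 23-NC. It was lower, at -0.75 ± 0.058 in 23-CATA and -1.58 ± 0.058 in 23-Tet1 (limma, adjusted p = 2.49e-12 and 1.99e-19). Zmat3 had 4.75, 4.16 and 4.51 FPKM in 23-CATA and 5.69, 5.39 and 5.2 FPKM in 23-Tet1, against 11.2, 9.66 and 10.4 FPKM in 23-NC, with differences of -1.08 ± 0.076 and -0.88 ± 0.076 (2.29e-13 and 9.69e-11). Mdm2 had 44.5, 44.2 and 45.1 FPKM in 23-CATA and 41.6, 41.3 and 41.8 FPKM in 23-Tet1, against 63.7, 62.6 and 61.3 FPKM in 23-NC, with differences of -0.49 ± 0.062 and -0.63 ± 0.062 (5.27e-08 and 2.44e-09). In all 3 genes every 23-NC library lay above every library of both other populations. Trp53inp1 differed by -2.56 in 23-CATA and -0.83 in 23-Tet1, and Cdkn1a by -0.29 and -0.26. Trp53 was higher in both, by 0.81 ± 0.072 in 23-CATA and 0.23 ± 0.072 in 23-Tet1 (2.03e-11 and 0.00148). Phlda3 was higher in 23-CATA (0.28), a call lost without 23-NC replicate 1 (0.0546) or 3 (0.0755) and of opposite sign under quantile normalisation (-0.15), and lower in 23-Tet1 (-0.57). On the same day the sum of adipocyte markers was 6.497e+04 to 6.635e+04 FPKM in 23-CATA and 5.608e+04 to 6.381e+04 FPKM in 23-Tet1, against 1.191e+04 to 1.337e+04 FPKM in 23-NC, with 18 of 18 markers higher in 23-CATA and 18 in 23-Tet1, and its part in the members' values was not tested.

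Between 23-CATA and 23-Tet1 after induction, 6 members were higher and 2 lower at day 2 (background 30.3% and 37.1%), 6 higher and 3 lower at day 4 (27.6% and 46.1%), and 4 higher and 2 lower at day 6 (31.9% and 33.8%). Cdkn1a, Mdm2, Ccng1 and Phlda3 were higher in 23-CATA at days 2 and 4, by 0.29 to 0.65 at day 2 and 0.44 to 1.13 at day 4. Trp53 was lower in 23-CATA at those days, at -0.99 ± 0.072 and -1.35 ± 0.072, and higher at day 6, by 0.56 ± 0.072 (limma, adjusted p = 1.34e-13, 2.08e-17 and 1.23e-07). At day 6 Cdkn1a (-0.05, 95% interval -0.18 to 0.07) and Mdm2 (0.10, -0.02 to 0.23) were not called. The Phlda3 call at day 2 was lost without 23-CATA replicate 2 or 23-Tet1 replicate 1 or 3 (adjusted p from 0.0722 to 0.229). The Bax call at day 6 was lost without 23-Tet1 replicate 2 (0.40, adjusted p = 0.0527), and that of Zmat3 without 23-CATA replicate 2 (-0.18, 0.0523).

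Against their own day 0, all 5 populations lost Plk2 and Trp53 mRNA, and they differed in what the other members did. Plk2 was called lower on each later day in each population. In FPKM it averaged 87.8 ± 10.1, 30 ± 18.1, 27.2 ± 15.3 and 19.9 ± 10 in Tet1-KO cells at days 0, 2, 4 and 6, and 98.2 ± 6.6, 3.48 ± 1.06, 3.05 ± 0.603 and 9.09 ± 1.52 in WT cells (SD, n = 3 each). The changes at days 2, 4 and 6 were -1.64, -1.51 and -1.80 in Tet1-KO and -4.10, -4.11 and -3.02 in WT. The Tet1-KO call of day 2 was lost without Tet1-KO replicate 2 of that day (-1.11, limma adjusted p = 0.0598). In the second table Plk2 differed from day 0 by -2.10, -2.63 and -1.56 in 23-CATA, by -1.30, -2.06 and -2.69 in 23-Tet1, and by -1.30, -2.22 and -0.61 in 23-NC.

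**Figure D4:**
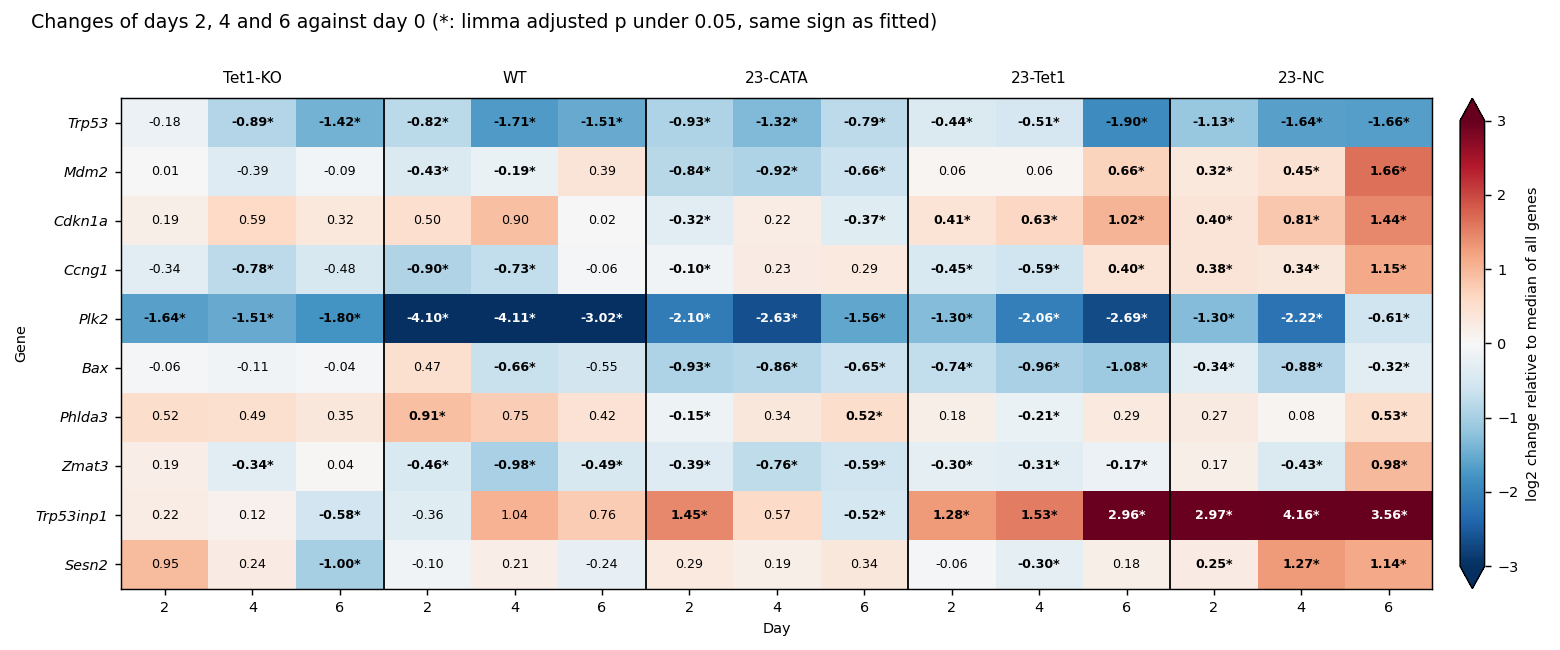
Differences of log2(FPKM + 1) from day 0, with the median over every gene tested subtracted, for each member (down) at days 2, 4 and 6 (across) in Tet1-KO, WT, 23-CATA, 23-Tet1 and 23-NC, with asterisks at adjusted p under 0.05 (limma). Plk2 and Trp53 carry lower calls throughout except for Trp53 in Tet1-KO at day 2 (-0.18, not called), and Trp53inp1 is far higher in 23-NC, by 2.97 to 4.16.

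Trp53 was called lower than at day 0 in all populations and days except Tet1-KO day 2 (-0.18, limma adjusted p = 0.708). The changes were -0.89 and -1.42 in Tet1-KO at days 4 and 6, and -0.82, -1.71 and -1.51 in WT at days 2, 4 and 6. The Tet1-KO change of day 6 was -0.69 without replicate 2 of that day, which stood apart. The Tet1-KO call of day 4 was lost without replicate 1 or 3 of day 0 or replicate 1 or 2 of day 4 (adjusted p from 0.0654 to 0.135), and the WT call of day 2 without replicate 2 or 3 of day 0 or replicate 1 or 2 of day 2 (0.0566 to 0.0625). In 23-Tet1 most of the fall came after day 4, with changes of -0.44 ± 0.072, -0.51 ± 0.072 and -1.90 ± 0.072, whereas 23-NC had -1.13 ± 0.072, -1.64 ± 0.072 and -1.66 ± 0.072.

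Tet1-KO cells had 0 members higher and 1 lower at day 2 than at day 0 (background 7.72% and 14.8%), 0 and 4 at day 4 (12% and 34.7%), and 0 and 4 at day 6 (9.55% and 35.6%). In WT cells the counts of days 2, 4 and 6 were 1 and 5 (background 18.9% and 42.7%), 0 and 6 (18.1% and 46.4%), and 0 and 3 (19.2% and 37.4%). At an unadjusted p under 0.05 in limma, 2, 0 and 0 members were higher in Tet1-KO at days 2, 4 and 6, and 1 and 0 in WT at days 4 and 6. Without the second Tet1-KO library of day 6 the Tet1-KO counts were 1 and 1, 0 and 5, and 0 and 3 (background 14.8% and 23.4%, 17.4% and 43%, and 13.9% and 27.6%). The median gene itself fell by 0.10, 0.29 and 0.38 in Tet1-KO and by 0.39, 0.52 and 0.29 in WT as fitted, and the split depends on scaling. With median-ratio scaling, 2 were higher and 1 was lower in Tet1-KO on each of days 2 and 4, and the WT counts were 2 and 3, 3 and 3, and 2 and 3 at days 2, 4 and 6. Quantile normalisation gave 1 and 1 in Tet1-KO and 0 and 4 in WT at day 2.

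In WT, Zmat3 was lower on all 3 later days (-0.46, -0.98 and -0.49), and Ccng1 at days 2 and 4 (-0.90 and -0.73). In Tet1-KO the calls of Ccng1 and Zmat3 at day 4 (-0.78 and -0.34) were lost without replicate 1 or 3 of day 0 or replicate 2 of day 4 (limma, adjusted p up to 0.209 and 0.274, with values as small as -0.36 and -0.05). The Tet1-KO call of Trp53inp1 at day 6 (-0.58) was lost without any library of day 0 or replicate 2 or 3 of day 6 (0.0592 to 0.119, values from -0.62 to -0.38). In WT, Mdm2 at day 2 (-0.43) was lost without replicate 1 or 2 of that day (0.0539 and 0.0563), and at day 4 (-0.19) without any library of day 0 or replicate 1 or 2 of day 4 (0.057 to 0.0979). The WT call of Phlda3 at day 2 (0.91) was lost without replicate 2 or 3 of day 0 or replicate 1 or 3 of day 2 (0.0669 to 0.0823), and under quantile normalisation the value was -0.02 (adjusted p = 0.975).

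In 23-CATA most calls against day 0 were lower, for 8, 5 and 7 of the 10 members at days 2, 4 and 6. The day 4 share was near that of all genes. It had 1 member higher and 8 lower at day 2 than at day 0 (background 27% and 45%), 0 and 5 at day 4 (25.8% and 49.4%; 0 higher also at an unadjusted p under 0.05 in limma), and 1 and 7 at day 6 (27.3% and 47.8%). The median gene itself fell by 0.16, 0.34 and 0.22 as fitted at days 2, 4 and 6. The counts under median-ratio scaling were 2 and 6, 5 and 5, and 3 and 7, and under quantile normalisation 0 and 8 at day 4. The 1 member higher at day 6, Phlda3 (0.52), was at -0.08 and not called under quantile normalisation (limma, adjusted p = 0.0874). Mdm2 averaged 82.6 ± 1.4, 41.1 ± 0.951, 34 ± 2.97 and 44.6 ± 0.449 FPKM at days 0, 2, 4 and 6, with changes of -0.84 ± 0.062, -0.92 ± 0.062 and -0.66 ± 0.062 (limma, adjusted p = 9.18e-15, 1.59e-17 and 1.56e-13). Zmat3 and Bax were lower on all 3 days, at -0.39, -0.76 and -0.59 for Zmat3 and at -0.93, -0.86 and -0.65 for Bax. The Ccng1 call at day 2 (-0.10) was lost without replicate 2 or 3 of day 0 or replicate 1 or 2 of day 2 (0.0557 to 0.164, values as small as -0.03), and was -0.22 without replicate 3 of day 2. Sesn2 at day 4 passed the threshold with a fitted change opposite in sign to its relative change (0.19) and is not counted.

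23-Tet1 had 2 members higher and 5 lower at day 2 (28.8% and 35.6% of all genes), 2 and 7 at day 4 (31% and 40.6%), and 4 and 4 at day 6 (32.8% and 44.7%), or 6 and 3 at day 6 under median-ratio scaling. There Cdkn1a was higher on each day (0.41, 0.63 and 1.02) and Bax lower (-0.74, -0.96 and -1.08). The Phlda3 call at day 4 (-0.21) was lost without replicate 2 of day 0 or replicate 3 of day 4 (limma, adjusted p = 0.0619 and 0.0622), and the Ccng1 call at day 6 (0.40) without replicate 2 of day 0 or replicate 3 of day 6 (0.0764 and 0.154).

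In 23-NC 7 of the 10 members were higher at day 6 than at day 0, led by Trp53inp1, Mdm2 and Cdkn1a. It had 5 members higher and 3 lower at day 2 (background 24.4% and 35.1%), 5 and 4 at day 4 (30.2% and 42.1%), and 7 and 3 at day 6 (31.7% and 40.5%), where the median member was 1.06. Median-ratio scaling gave 7 and 2 at day 2, and quantile normalisation 4 and 5 at day 4. Cdkn1a averaged 87.1 ± 11.5, 109 ± 3.05, 142 ± 2.52 and 225 ± 11.3 FPKM at days 0, 2, 4 and 6, and was higher than at day 0 by 1.44 ± 0.063 at day 6 (limma, adjusted p = 6.49e-18). Mdm2 averaged 20.1 ± 1.02, 24.2 ± 0.832, 26 ± 0.881 and 62.5 ± 1.23 FPKM, and was higher by 1.66 ± 0.062 (1.03e-19), mostly after day 4. Trp53inp1 averaged 21.6 ± 2.73, 167 ± 4.86, 375 ± 9.95 and 251 ± 15.4 FPKM and was higher by 4.16 ± 0.13 at day 4 (6.53e-22). Zmat3 was lower at day 4, at -0.43 ± 0.076, but its day 6 level was higher than that of day 0, by 0.98 ± 0.076.

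Some 23-NC calls were lost on leaving out 1 library. Bax at day 2 (-0.34) was lost without replicate 1 of day 0 or replicate 2 of day 2 (limma, adjusted p = 0.133 to 0.348, values as small as -0.10). Bax at day 6 (-0.32) was lost without replicate 1 of day 0 or replicate 1 or 3 of day 6 (0.0727 to 0.385, values as small as -0.07). Sesn2 at day 2 (0.25) was lost without replicate 1 of day 0 or replicate 2 of day 2 (0.0692 to 0.0802), and Ccng1 at day 4 (0.34) without any library of day 0 or replicate 3 of day 4 (0.0518 to 0.321, values as small as 0.22).

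The difference between populations in the change from day 0 was tested directly. For 23-CATA against 23-NC, 8, 6 and 8 of the 10 members were called at days 2, 4 and 6, where 50.4%, 58.1% and 63.5% of all genes were. For 23-Tet1 against 23-NC the counts were 6, 5 and 9, with a background of 53.9%, 50.5% and 61.4%. Negative calls made up 36% of all genes at day 6 for 23-CATA and 32.3% for 23-Tet1. Of the 8 calls of 23-CATA at day 6, 7 were towards a smaller rise or larger fall than in 23-NC, led by Trp53inp1 (-4.13 ± 0.18, limma adjusted p = 1.1e-17), Mdm2 (-2.37 ± 0.087, 6.33e-20) and Cdkn1a (-1.87 ± 0.089, 2.25e-17), and Trp53 was the exception (0.81 ± 0.10, 5.67e-07). All 9 calls of 23-Tet1 at day 6 were in that direction. For Tet1-KO against WT, 2, 1 and 0 members were called, with 1 at an unadjusted p under 0.05 at day 6 (background 21.9%, 7.61% and 17.8%), namely Plk2 at day 2 (2.46 ± 0.60, 0.00455) and day 4 (2.64 ± 0.60, 0.00668), and Zmat3 at day 2 (0.66 ± 0.33, 0.0474), which was lost without any of 9 libraries (adjusted p from 0.0745 to 0.135). The counts between Tet1-KO and WT were 4, 2 and 1 without the second Tet1-KO library of day 6. All were positive, as were the calls of 29.6%, 14.1% and 13.4% of all genes. The calls of Mdm2 at day 2 and Trp53 at day 6 in 23-Tet1 and of Bax at day 2 in 23-CATA were also lost on leaving out a library (23-NC day 0 replicate 1 or 23-Tet1 day 2 replicate 2, 23-NC day 0 replicate 3 or 23-Tet1 day 0 replicate 2, and 23-NC day 0 replicate 3), at adjusted p from 0.0507 to 0.0971.

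Likeness between members is given as a description for each table on its own. Over the 8 group means of log2(FPKM + 1), Pearson's r between members had a median of 0.508 and was positive in 39 of 45 pairs, highest for Mdm2 with Ccng1 (0.981). Over the 12 group means of the second table the median was 0.196, with 30 of 45 pairs positive, from -0.834 for Trp53inp1 with Trp53 to 0.944 for Bax with Plk2. Cdkn1a with Mdm2 gave 0.844 and Mdm2 with Ccng1 0.808 there. Among 9603 genes of the first table, Ccng1 was also the gene most like Mdm2, followed by BC064078 (0.978) and Tcirg1 (0.973), and the genes most like Cdkn1a were Fibp (0.961), Gm10638 (0.956) and Gm773 (0.949). Among 10161 genes of the second, those most like Mdm2 were Cdkn1a, Ccng1 and Lrrc28 (0.791), and those most like Cdkn1a were Ccng2 (0.891), Sec61a2 (0.882) and Acad8 (0.851). Trp53 was most like Ddost (0.993), Il17ra (0.989) and Mcmbp (0.989) in the first table and Dctd (0.979), Apobec3 (0.974) and Rabl2 (0.973) in the second. These are descriptions over few points that share libraries and days.

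A wider list of 41 other p53 targets, of which 37 were tested in the first table and 38 in the second, had calls in both directions. In Tet1-KO against WT the counts higher and lower were 3 and 1, 13 and 0, 9 and 2, and 9 and 11 at days 0, 2, 4 and 6, with medians of 0.35, 0.42, 0.38 and 0.15, and 2 were lower at day 2 at an unadjusted p under 0.05 in limma. As shares these were 8.11% and 2.7%, 35.1% and 0%, 24.3% and 5.41%, and 24.3% and 29.7% of the list, where all genes had 5.83% and 11%, 16.2% and 6.76%, 9.79% and 6.22%, and 15.7% and 29.7%, so at day 0 the higher share and at day 6 the lower share were near those of all genes. The counts were 9 and 6, 18 and 2, 15 and 4, and 9 and 7 without the second Tet1-KO library of day 6. In that fit all genes had 12.5% and 20.8%, 27.7% and 13%, 19.3% and 12.3%, and 20.1% and 23.5%. Fas, a death receptor, averaged 88.8 ± 8.47 FPKM in Tet1-KO and 32.7 ± 0.894 FPKM in WT at day 0. Ephx1, an epoxide hydrolase, averaged 381 ± 191 FPKM in Tet1-KO and 56.8 ± 21.6 FPKM in WT at day 2. At day 6 Sertad1, a regulator of cyclin D and CDK4, was higher by 3.01, while Dram1, a lysosomal protein of autophagy, was lower, at -2.12, as was Bbc3, the death promoter PUMA, at -1.56.

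In 23-CATA against 23-NC the counts were 26 and 2, 12 and 18, 13 and 13, and 10 and 22 at days 0, 2, 4 and 6, with medians of 0.25, -0.15, 0.02 and -0.30, where all genes had 31.6% and 11.7%, 34.3% and 30.7%, 28.9% and 39.9%, and 38% and 36.4%. Btg2, an antiproliferative gene, averaged 132 ± 6.2 FPKM in 23-CATA and 11.4 ± 0.914 FPKM in 23-NC at day 0. Gdf15, a stress cytokine, averaged 10.2 ± 0.73 FPKM in 23-CATA and 0.427 ± 0.247 FPKM in 23-NC at that time. Sesn1, the sestrin relative of Sesn2, averaged 12.7 ± 0.611 FPKM in 23-CATA and 80.8 ± 1.42 FPKM in 23-NC at day 6, a change in the opposite direction to Btg2 and Gdf15 at day 0. In 23-Tet1 against 23-NC the counts were 18 and 9, 7 and 22, 10 and 12, and 5 and 22, where all genes had 37.8% and 23.5%, 38.7% and 25.2%, 35% and 21.9%, and 36% and 29%. Fas was lower in 23-Tet1 at day 0, at -2.53, and Gadd45a, a growth arrest gene, averaged 21 ± 1.57 FPKM in 23-Tet1 and 106 ± 7.16 FPKM in 23-NC at day 6. Within 23-NC, 27 of these targets were higher and 7 lower at day 6 than at day 0, where 31.7% and 40.5% of all genes were.

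**Figure D5:**
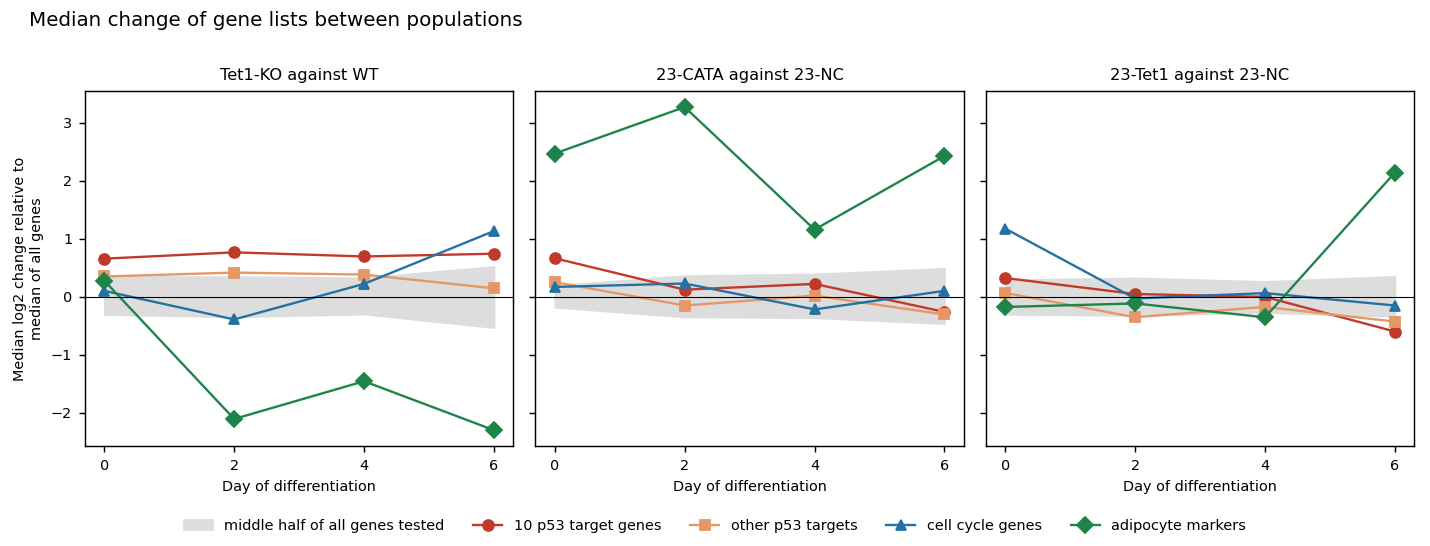
Median difference of log2(FPKM + 1), with the median over every gene tested subtracted, of the 10 members, the other p53 targets, cell cycle genes and adipocyte markers by day in Tet1-KO against WT, 23-CATA against 23-NC and 23-Tet1 against 23-NC, with a grey band from the 25th to the 75th percentile of all genes tested. The members' median lies at 0.66 to 0.77 in Tet1-KO cells, and falls to -0.26 in 23-CATA and -0.60 in 23-Tet1 at day 6.

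Of 14 genes tested that control p53, the counts higher and lower in Tet1-KO against WT were 0 and 2, 4 and 1, 1 and 0, and 0 and 1 at days 0, 2, 4 and 6 (limma; unadjusted 0 and 4, 7 and 1, 2 and 1, and 0 and 2). Mdm4, the partner of Mdm2, was higher by 0.40 in Tet1-KO at day 2. The counts were 4 and 1, 2 and 4, 2 and 6, and 3 and 7 in 23-CATA against 23-NC, and 11 and 1, 3 and 4, 5 and 1, and 3 and 4 in 23-Tet1 against 23-NC. All genes had 5.83% and 11%, 16.2% and 6.76%, 9.79% and 6.22%, and 15.7% and 29.7% in Tet1-KO against WT. In 23-CATA against 23-NC they had 31.6% and 11.7%, 34.3% and 30.7%, 28.9% and 39.9%, and 38% and 36.4%. In 23-Tet1 against 23-NC they had 37.8% and 23.5%, 38.7% and 25.2%, 35% and 21.9%, and 36% and 29%. Mdm4 differed between 23-CATA and 23-NC by 0.59 at the start, and by -0.84 and -1.14 at days 4 and 6. Sirt1, which deacetylates p53, was higher in 23-Tet1 than in 23-NC on all 4 days, by 0.77, 1.56, 0.76 and 0.77.

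Of the 10 other BCL2 family genes tested, the counts higher and lower were 0 and 2, 3 and 0, 2 and 0, and 3 and 0 in Tet1-KO against WT (unadjusted 1 and 2, 6 and 0, 3 and 0, and 3 and 0). Among them Bcl2l1, which encodes the survival protein BCL-XL, was higher by 1.15 and 1.56 at days 4 and 6, and Bid, which activates BAX, by 0.35, 0.45 and 0.89 at days 2, 4 and 6. The second-table counts were 4 and 1, 2 and 5, 5 and 3, and 3 and 6 in 23-CATA and 5 and 4, 5 and 2, 4 and 1, and 3 and 5 in 23-Tet1 against 23-NC. Bcl2l1 at day 6 was lower in both, at -2.23 in 23-CATA and -1.36 in 23-Tet1. The shares of all genes are those given with the genes that control p53. Whether the counts of either list differ from these shares was not tested.

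Of 36 cell cycle genes, whose products drive the divisions that p21 restrains, the counts higher and lower in Tet1-KO against WT were 0 and 1, 0 and 0, 0 and 0, and 12 and 1 at days 0, 2, 4 and 6 (limma; unadjusted 0 and 1, 0 and 0, and 1 and 1 at days 0, 2 and 4), with medians of 0.10, -0.39, 0.22 and 1.13. At day 6 the 12 higher and 1 lower were 33.3% and 2.78% of the list, where 15.7% and 29.7% of all genes were. Without the second Tet1-KO library of day 6 the counts on that day were 19 and 1 (background 20.1% and 23.5%), and without the second libraries of days 2, 4 and 6 they were 31 and 1 (26.4% and 27.2%). Within each population 19 to 36 of the 36 were lower on later days than at day 0, where 14.8% to 49.4% of all genes were. The counts were 20 and 2, 21 and 5, 2 and 21, and 15 and 8 in 23-CATA against 23-NC and 36 and 0, 13 and 5, 15 and 11, and 4 and 15 in 23-Tet1 against 23-NC. Of the other CDK inhibitors listed, 3 were tested, and the counts in Tet1-KO against WT were 0 and 1, 1 and 0, 0 and 0, and 0 and 2 (unadjusted 0 and 1, 1 and 0, 0 and 1, and 0 and 3). For the comparisons between populations, the shares of all genes are those given with the genes that control p53.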

How the data were processed

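Polyadenylated RNA of 60 libraries, 20 groups of 3, was sequenced after a TruSeq preparation, per the labels' protocols. The deposited values are FPKM per gene in 2 tables, made by the authors with STAR 2.4.1a and RSEM on mm10, per the submitters' processing notes; the RSEM version and the annotation are not given in the sources used here. Groups follow sample titles. The tables were fitted separately, and no level was compared between them. R 4.3.3 and limma 3.58.1 tested the values on the scale of log2(FPKM + 1) (trend, all groups of a table in 1 fit), over genes with at least 1 FPKM in at least 3 libraries, with Benjamini-Hochberg adjustment over all genes tested. This scale understates changes of low genes. The script was tested on simulated data. Fragments per library were read from the spacing of low values of 3380 single-transcript genes, without recovering whole counts, so no count test was run. In each list and comparison, named genes were up to 2 called each way with the largest change, non-overlapping groups and at least 5 FPKM in a group; like genes were ranked by Pearson's r of group means. The members and lists were chosen with earlier results of these data known. Same-numbered libraries did not deviate together (r from -0.254 to 0.367 over 16 comparisons, all pairs above 0.1 in 1), so the numbers were not used as pairs. Alternatives were a replicate block, library weights, leaving out libraries, fitting only the groups compared, median-ratio scaling or quantile normalisation, another pseudocount, and no filter. Leaving the second Tet1-KO libraries out of the counts of the other gene lists was chosen after seeing the data. Python 3.11.15 with pandas 2.3.3 was used for summaries.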

Additional observations from a re-analysis of the deposited data

Results flagged for a closer look

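In 21 cases the change from day 0 differed between populations by the interaction term of the limma fit, and for each member and pair of populations the day with the largest called difference is given, on the log2 scale relative to the median gene. Between 23-CATA and 23-NC the difference was -4.13 for Trp53inp1, -2.37 for Mdm2, -1.87 for Cdkn1a, -1.62 for Zmat3, -1.01 for Plk2, -0.91 for Ccng1 and 0.81 for Trp53 at day 6, -1.13 for Sesn2 at day 4, and -0.59 for Bax and -0.43 for Phlda3 at day 2. Between 23-Tet1 and 23-NC it was -2.09 for Plk2, -1.16 for Zmat3, -1.0 for Mdm2, -0.77 for Bax and -0.43 for Cdkn1a at day 6, and -2.58 for Trp53inp1, -1.51 for Sesn2, 1.18 for Trp53 and -0.88 for Ccng1 at day 4. Between Tet1-KO and WT it was 2.64 for Plk2 at day 4 and 0.66 for Zmat3 at day 2. The comparisons with 23-NC share its libraries. Such calls were common among all genes, at 50.4% to 63.5% by day for 23-CATA and 50.5% to 61.4% for 23-Tet1. Between Tet1-KO and WT they made up 7.61% to 21.9% of all genes. The Zmat3 call at day 2 between Tet1-KO and WT was lost without any of 9 libraries. The Bax call at day 2 between 23-CATA and 23-NC was lost without 23-NC day 0 replicate 3 (limma, adjusted p = 0.0507).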

How the results depend on the processing

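Precision is limited by 3 libraries a group, and in the first table by the spread among Tet1-KO libraries. Tet1-KO against WT had 20 member calls of 40, and 35 with library weights, 33 without the second Tet1-KO libraries of days 2, 4 and 6, and 16 to 28 on leaving out 1 library. With the compared groups alone it had 17, with 6, 9, 1 and 1 at days 0, 2, 4 and 6. WT days against day 0 had 15 of 30, and 24 with the compared groups alone and 24 with library weights. Tet1-KO days had 9, and 4 with the compared groups alone, 16 without those second libraries and 5 to 11 on leaving out 1 library. The differences in change between Tet1-KO and WT had 3 calls, and 7 with the compared groups alone, 20 with library weights, 7 without the second Tet1-KO library of day 6, 17 without the second libraries and 2 to 8 on leaving out 1 library. Numbers shared by libraries were not taken as pairs; with the replicate block these differences had 5 calls and Tet1-KO against WT 25. Signs turned under quantile normalisation for Phlda3 (WT day 2 -0.02, 23-CATA against 23-NC day 6 -0.15, 23-NC day 4 -0.14, 23-CATA days 4 and 6 -0.35 and -0.08), Cdkn1a (WT day 6 -0.60, 23-CATA day 4 -0.54) and Ccng1 (23-CATA days 4 and 6 -0.34 and -0.21). They turned with library weights for Trp53 in Tet1-KO against WT at day 6 (0.45), the difference in change between Tet1-KO and WT at day 4 of Ccng1 (0.23), Cdkn1a (0.04) and Phlda3 (0.18), Bax at day 4 in 23-Tet1 against 23-NC (0.15) and 23-CATA against 23-Tet1 (-0.06), and Mdm2 in 23-Tet1 at day 4 (-0.01). Sesn2 in 23-CATA at day 4 was -0.09 without the filter. Trp53 in Tet1-KO against WT at day 6 ranged from -0.58 to 0.60 on leaving out 1 library, and was 0.60 without the second Tet1-KO library or libraries. The causes were not tested, apart from the libraries named.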
